A study of Mus musculus with 12 samples.

Results

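Neurospheres are floating aggregates of neural stem and progenitor cells (NSPCs). The vehicle-treated neurospheres described here were grown from the cortex of C57BL/6 mouse embryos at embryonic day 14.5, at passage 3, and received only PBS for 24 h, with no transgene, mutant allele or drug named for them. They gave 6 of the 12 RNA sequencing libraries of the study, 3 from female and 3 from male embryos, with sex determined by PCR for Sry. The other 6 libraries received pravastatin and enter only an alternative fit. The 6 were chosen by their vehicle label and are called female cultures 1 to 3 and male cultures 1 to 3. Each culture was grown from an individual embryo and expanded in medium that selects for dividing cells, which limits it as a model of the cortex in place. The same vehicle libraries also serve in another deposited data set.

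In the embryonic cortex, radial glia line the ventricle, divide to renew themselves and give rise first to neurons and later to astrocytes and oligodendrocytes. Notch signalling holds them in the progenitor state through repressors of the HES family, and growth factor receptors such as Egfr mark later, gliogenic progenitors. Cultured as neurospheres, such cells are known to keep radial glial genes and to take up oligodendrocyte lineage factors such as Olig2.

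The table held 16106 genes, of which 12794 were protein-coding, and 13927 were above 1 in all 6 libraries. Values are read counts divided by a library's effective size, so that a library sums to between 962669 and 1008840, and levels of different genes are compared per kilobase of exon, except where a ranking is said to be by value without length. Reads per library ran from 16117714 to 18422845, and 3 reads, the smallest count taken as measured, were worth 0.157 to 0.182. Female cultures 2 and 3 stood apart. The first principal component held 80.1% of the variance of log2 values and placed them at 49.3 and 31.9, with the other 4 libraries between -18.8 and -21.7. Across genes, which are not independent replicates, female cultures 2 and 3 differed from each other by a median of 0.135 on the log2 scale, and from the other 4 by 0.247 to 0.329, while those 4 differed among themselves by 0.0996 to 0.140. Spread is therefore given with and without them, and levels per kilobase are over all 6 libraries unless stated. A lower bulk level cannot tell fewer cells of a type from less RNA per cell.

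The culture label was checked against markers. All 16 markers of neural stem cells and radial glia were above 1 in all 6 libraries, and 10 of the 16 (62.5%) stood at or above the 90th percentile of nuclear coding genes, 34.0 per kilobase. None of 11 microglial and none of 6 erythroid markers had a row in the table analysed here. A missing row, here or below, is not a measured absence, since 6 of the 13 mitochondrial mRNAs lacked one too. Of 8 endothelial markers 4 had a row, with no value over 3.29, and of 10 mural and meningeal markers 4 had one, with a highest value of 21.5 for Foxc1. Neuronal genes were mostly low. Of 20 such markers 14 had a row, with a median of 1.09 per kilobase against 6.87 over all nuclear coding genes. Of these 14, 1 (7.14%) reached the 90th percentile. Map2, a microtubule protein also found in dividing neural cells, was at 774 to 990, while Tbr1, a factor of deep-layer neurons, was at 0.541 to 1.68. Markers of intermediate progenitors were mixed. Eomes was at 0.421 to 1.51 and Hes6 at 77.9 to 99.9. Of 7 such markers with a row 3 (42.9%) reached the 90th percentile, against 10.0% of all nuclear coding genes.

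The most abundant nuclear coding RNAs were those of radial glia, the cytoskeleton, energy supply and translation. Of the mitochondrial mRNAs, mt-Co1 stood above all of them at 3091 per kilobase, with mt-Cytb at 1522 and mt-Nd1 at 1392. Fabp7, a fatty acid-binding protein of radial glia (chr10:57784881-57788450, GRCm38), had the highest mean of all nuclear coding genes at 1939 ± 280 per kilobase (SD, n = 6). Its values were 1927, 2748 and 2419 in the female and 2849, 2456 and 2140 in the male cultures, so that the sexes overlapped. Actb followed at 1718 ± 158 per kilobase, a gap smaller than the spread between cultures, and was above Fabp7 in female culture 1 (1778 against 1542) and male culture 3 (1815 against 1712). Ckb, the brain creatine kinase, was at 1263 ± 134. Rplp1 of the ribosome, Tmsb4x, which binds actin monomers, and the elongation factor Eef1a1 lay between 963 and 970 per kilobase. These 3 differed by less than the spread between cultures. Scd2, a desaturase of fatty acids, stood at 636 ± 36.4 and Vim, the intermediate filament of radial glia, at 623 ± 27.3 per kilobase.
Of the 20 leading genes 5 ranged over more than 2-fold between cultures, against 14.7% of all genes with a mean of at least 5. Vim ran from 2768 to 3139 with a coefficient of variation (CV) of 4.38%, and Eef1a1 from 2255 to 2558 with 4.85%. Apoe, a lipid carrier made by glia, was among these 5. It was at 291, 3730 and 2136 in the female and at 340, 453 and 444 in the male cultures, highest in female cultures 2 and 3. Txn1, the redox protein thioredoxin, was lowest in those cultures at 396 and 534 and stood at 851 to 1044 in the others. Igfbp2, which binds insulin-like growth factors, was also lowest there at 578 and 831 against 1100 to 1285. Hist1h4h and Hist2h2bb, a pair of histone genes whose mRNAs carry no poly(A) tail, were among the 20 at 492 ± 69.1 and 458 ± 112 per kilobase in these total RNA libraries. Ranking by value without length kept 11 of the 20 genes.

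**Figure D1:**
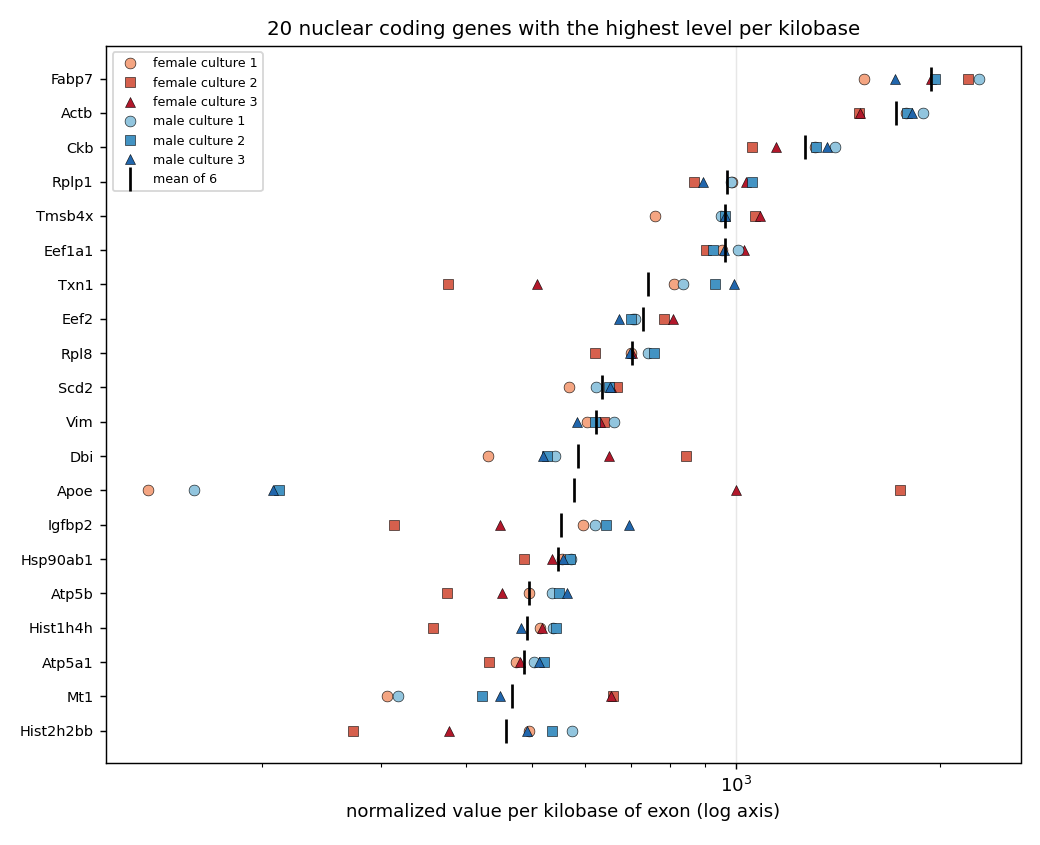
Level per kilobase of exon on a log axis for the 20 nuclear coding genes with the highest mean, with a point for each of the 6 vehicle libraries and a bar at their mean. Fabp7 leads at 1939 per kilobase, and Apoe spreads most, from female culture 1 up to female culture 2.

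Ribosomal protein genes had very unequal levels. Most of the proteins enter the ribosome in equal numbers. The 42 genes listed ran from 2.54 per kilobase for Rps16 to 970 for Rplp1, and 16 of them were under 20. Gapdh, a glycolytic enzyme usually among the most abundant mRNAs, stood at only 13.5 per kilobase, with values of 41.7 to 63.6. Many genes of these kinds have near-identical processed pseudogenes, and HTSeq at its default settings leaves out reads that align in several places. The 1375 pseudogenes of the table took 1.78% to 2.18% of the values. Counts also rest on the authors' merged transcript annotation, while lengths are those of GENCODE vM21. Levels of such genes are uncertain, and the part of multiple alignment or of the annotation in them was not tested. Over all 6 libraries their spread was small. The median CV of the 41 ribosomal protein genes with a mean of at least 5 was 9.04%, against 13.2% over all 11677 such genes. None of these 41 ranged over more than 2-fold, against 14.7% of all such genes. The median CVs were 6.5% and 7.03% without female cultures 2 and 3, a smaller gap.

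Noncoding RNAs took a large part of the reads in these total RNA libraries. Protein-coding genes held 85.3% to 87.9% of the values. Rn7sk (chr9:78175303-78175633), the 7SK RNA that restrains the elongation factor P-TEFb, took 1.90% to 2.97%. Its values were 19946, 27956 and 29470 in the female and 21557, 23925 and 18259 in the male cultures. Rmrp and Rpph1, the RNA parts of the enzymes RNase MRP and RNase P, were at 10239 ± 1304 and 10461 ± 1850. With Rn7sk they held 3.70% to 5.5% of the values. Per kilobase Rn7sk stood at 71054, Rmrp at 37782 and Rpph1 at 32792, far above Fabp7, the leading nuclear coding gene. Rny3, a Y RNA, had values from 279 to 527.
The mitochondrial ribosomal RNA mt-Rnr2 took 1.69% to 2.62% and was highest in female culture 2. Of the 13 mitochondrial mRNAs 7 had a row, and these held 0.773% to 1.04%, so the share covers part of the mitochondrial genome. mt-Co1, a subunit of cytochrome oxidase, had the highest value of the 7 without length at 4776 ± 800, while mt-Nd6, the mRNA encoded on the opposite strand, was lowest at 38.7 ± 5.38.
Rn18s-rs5, Gm42418 and Gm26917 lie side by side on chromosome 17. Gm26917 (chr17:39843013-39846341) ends 11 bases before Rn18s-rs5 (chr17:39846353-39848827), a gene for 18S ribosomal RNA, on whose opposite strand Gm42418 overlaps it by 1831 bases. Gm26917 ran from 12997 to 20418 and had the highest mean value, without length, of genes labelled long noncoding. Rn18s-rs5 ran from 172 in female culture 1 to 948 in male culture 2. Reads of Gm42418 and Rn18s-rs5, which overlap, are uncertain, since the strand setting of the counting is given only as the default. Gm26917 does not overlap them, and the source of its reads was not tested.

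**Figure D2:**
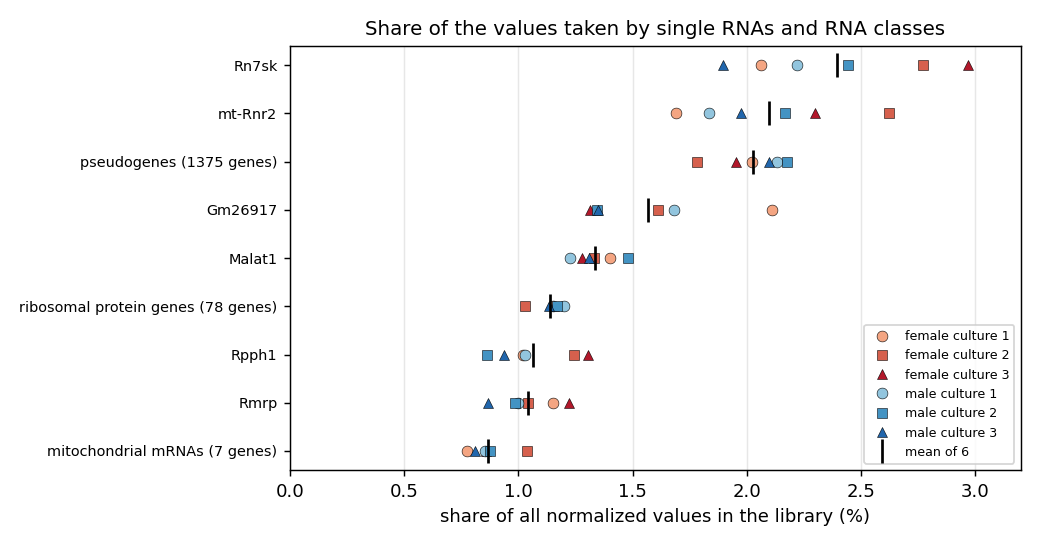
Share of all normalized values, in percent, for single noncoding RNAs and RNA classes, with a point for each of the 6 vehicle libraries and a bar at their mean. Rn7sk reaches 2.97% in female culture 3, and the 7 mitochondrial mRNAs stay near 1%.

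Among other long noncoding genes, Malat1 (chr19:5795690-5802672), an RNA of nuclear speckles, was both abundant and even. It was at 13557, 13414 and 12661 in the female and at 11911, 14504 and 12603 in the male cultures, a CV of 6.93%. Tug1 was at 141 ± 9.04, with a CV of 6.44%. Gas5, a host of small nucleolar RNAs, was at 271 ± 45.3 and lower in female cultures 2 and 3, at 217 and 209, than in the others, at 291 to 308. Kcnq1ot1, an imprinted RNA antisense to Kcnq1, was at 171 ± 28.0, which rests on strand as well. Cct6a, a chaperonin subunit gene, appears in this class only because the file labels it a processed transcript, and had values of 374 to 550. H19, an imprinted RNA, was at 42.8 and 53.9 in female cultures 2 and 3 and at 4.13 to 8.02 in the other 4. Miat did the same, at 122 and 89.4 against 12.7 to 20.3.

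Of the 12 long noncoding genes with the highest values, ranked without length, Gm3764 and C130071C03Rik span hairpins of miR-9, a microRNA of neural progenitors that is known to repress Hes1 and Nr2e1. Gm3764 (chr3:88206813-88229959) holds Mir9-1 in an intron, C130071C03Rik (chr13:83721381-83884194) holds Mir9-2 in an exon, and Mir9-3hg (chr7:79500026-79534403) holds Mir9-3 in an intron, all on the same strand as the hairpin in GENCODE vM21. The 3 hairpins are shown because they come from different chromosomes and yet carry the same 2 mature sequences, written in capitals. Sequences are from RefSeq, GRCm38.p6, 5′ to 3′.
Mir9-1, chr3:88215598-88215686, plus strand: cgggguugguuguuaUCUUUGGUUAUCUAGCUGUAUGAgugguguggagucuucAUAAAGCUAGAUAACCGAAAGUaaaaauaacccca
Mir9-2, chr13:83738814-83738885, plus strand: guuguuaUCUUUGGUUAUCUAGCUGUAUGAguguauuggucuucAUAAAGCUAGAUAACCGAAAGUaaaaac
Mir9-3, chr7:79505264-79505353, plus strand: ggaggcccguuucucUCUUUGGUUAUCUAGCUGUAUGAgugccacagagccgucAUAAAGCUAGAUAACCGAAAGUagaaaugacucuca
Gm3764 was at 371, 300 and 299 in the female and at 311, 317 and 393 in the male cultures, with a CV of 12.1%. C130071C03Rik was at 231, 401 and 346 in the female and at 250, 255 and 261 in the male cultures, highest in female cultures 2 and 3. Mir9-3hg was at 28.1, 61.9 and 66.1 in the female and 41.5, 38.8 and 43 in the male cultures, and was also highest in female cultures 2 and 3. The hairpin gene Mir9-1 itself had values of 6.63 to 9.50 and Mir9-3 of 0.486 to 1.33. These are reads over the hairpin in long RNA, and mature miRNAs were not measured.
The miRNAs of 4 other hosts are shown because they share 3 seeds. With the seed, bases 2 to 8, in capitals, these are the mature 5p forms.
let-7a, within 6720427I07Rik: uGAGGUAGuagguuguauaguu
let-7c, within Mir99ahg: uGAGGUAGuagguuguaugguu
miR-99a, within Mir99ahg: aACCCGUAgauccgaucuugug
miR-100, within 2610203C20Rik: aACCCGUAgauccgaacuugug
miR-17, within Mir17hg: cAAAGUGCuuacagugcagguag
miR-20a, within Mir17hg: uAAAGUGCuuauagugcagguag
The seed GAGGUAG is common to let-7a and let-7c, ACCCGUA to miR-99a and miR-100, and AAAGUGC to miR-17 and miR-20a. 2610203C20Rik, which holds Mir100, Mirlet7a-2 and Mir125b-1, was at 104 and 88.1 in female cultures 2 and 3 and at 34.1 to 38.0 in the other 4. Mir99ahg was at 57.9 and 36.2 in those 2 and at 29.4 to 32.3 in the others. 6720427I07Rik, which holds Mirlet7a-1, Mirlet7d and Mirlet7f-1, was at 51.6 ± 6.02, and Mir17hg, which holds the cluster of miR-17 and miR-20a that promotes proliferation, at 21.5 ± 3.33. In all, 38 long noncoding genes of the table spanned 61 of the 1005 hairpins in RefSeq.

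Transcription factors were led by the oligodendrocyte lineage pair and the SOX family. Olig1 (chr16:91269772-91271933) stood at 367 ± 22.0 per kilobase, highest of all factors listed. It was at 862, 746 and 755 in the female and at 843, 774 and 786 in the male cultures, a CV of 5.99%. Sox2, which maintains neural stem cells, followed at 178 ± 66.1 per kilobase, Hes5, a Notch effector, at 173 ± 122, Sox4 at 170 ± 59.9 and Olig2 at 154 ± 21.6. The order of these last 4 is not resolved. Without female cultures 2 and 3 Olig2 was at 167 per kilobase, Sox2 at 136, Sox4 at 132 and Hes5 at 94.5. Olig2 was at 439, 325 and 322 in the female and 448, 408 and 400 in the male cultures.
Notch effectors differed in how much they varied between cultures. Hes5 was at 442 and 458 in female cultures 2 and 3 and at 120 to 136 in the other 4. Hes1 was at 90.4 to 98.2 in all 6, with a CV of 3.14%. Hey1 was at 230 and 183 in female cultures 2 and 3 against 78.4 to 109, Id2 at 181 and 114 against 54.2 to 60.5, and Id4 at 57.6 and 23.7 against 8.67 to 12.1. Id3, another inhibitor of bHLH factors, was even at 89.9 to 108. The median CV of the 9 HES, HEY and ID repressors with a mean of at least 5 was 43.3%, and it was 6.83% without female cultures 2 and 3, against 13.2% and 7.03% over all genes.
Sox2, Sox4 and Sox8 were also high in the same 2 libraries. Sox4 was at 1234 and 1134 there and at 619 to 652 in the others, and Sox8 at 357 and 351 against 162 to 180. Sox11 was lower there, at 308 and 293 against 387 to 404. Sox10, which directs oligodendrocyte differentiation, was at 90.2 and 71 there and at 7.10 to 14.4 in the others, and Myrf, its partner in myelin gene activation, at 22.3 and 10.4 against 1.15 to 1.89. Factors that hardly varied were Pou3f3, at 299.5 to 327 with a CV of 3.03%, and Tcf12, at 455 to 499.7 with 3.39%. Etv4 and Etv5, which respond to FGF signalling, were lowest in female culture 2, at 61.1 and 83.2, and stood at 116 and 184 in female culture 1.

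Factors of regional identity covered a wide range of levels. Of 28 factors of cortical radial glia and the dorsal forebrain 26 were above 1 in all 6 libraries, with a median of 9.77 per kilobase against 6.87 over all nuclear coding genes. Emx2, a factor of the dorsal telencephalon, was at 14.9 to 19.6, Lhx2 at 24.0 to 47.1 and Pax6, a factor of dorsal radial glia, at 35.1 to 52.3. Emx1 and Dmrt3 had no row in the table analysed here. Of 17 ventral forebrain factors 10 had a row, with a median of 0.956 per kilobase, and Nkx2-1, Lhx6, Lhx8, Gsx1, Dlx5 and Dlx6 had none. Nr2f1, Meis2 and Meis1, which the cortex also uses, held the higher values, with Nr2f1 at 63.3 to 104. Dlx2 was at 1.29 to 3.22. Gsx2, a ventral progenitor factor, had values of 1.80 to 2.71 in 5 cultures and a single read, worth 0.0559, in female culture 1. Of 22 factors of the midbrain, hindbrain and spinal cord 3 had a row. Egr2 was at 51.9 to 78.7, and En2 and Gbx2 were at most 3.79. Of the neurogenic factors, Neurog2 was at 0.575 to 4.33, and Neurog1, Neurod2, Neurod4 and Neurod6 had no row.

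**Figure D3:**
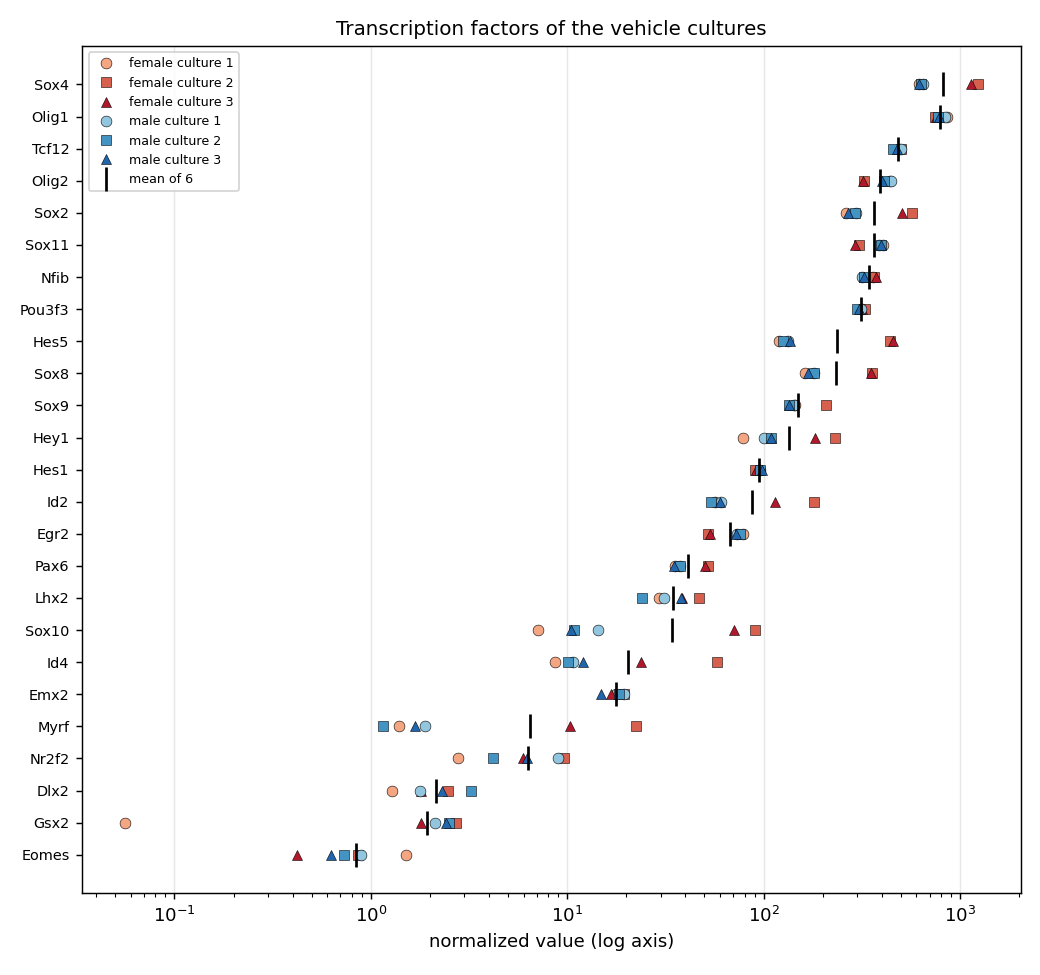
Normalized value on a log axis of 25 transcription factors chosen from the lists, ordered by mean value without a length correction, with a point for each of the 6 vehicle libraries and a bar at their mean. Pou3f3, Tcf12 and Hes1 form tight clusters, female cultures 2 and 3 lie to the right for Hes5, Sox10, Id4 and Myrf, and Gsx2 has a single point near 0.0559.

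Surface receptors were led by adhesion molecules and the endothelin receptor. Cd81, a tetraspanin, stood at 282 ± 27.2 per kilobase, and its values of 730 to 910 gave a CV of 9.64%. Ednrb, the endothelin B receptor of glial progenitors, was at 240 ± 147 per kilobase. It was at 529, 2117 and 1438 in the female and at 669, 683 and 698 in the male cultures, so that female cultures 2 and 3 were highest. Itgb1, an integrin that anchors radial glia, was at 168 ± 27.8 and Bcan, a proteoglycan on the cell surface and in the matrix, at 157 ± 58.8 per kilobase. Without female cultures 2 and 3 Itgb1 was above Ednrb, at 185 against 151 per kilobase.
Among receptor tyrosine kinases, Ddr1, which binds collagen, led at 69.8 ± 12.3 per kilobase with Egfr at 67.2 ± 8.66, a difference smaller than the spread between cultures. Without female cultures 2 and 3 Egfr was the higher, at 72.8 against 62.4. Egfr (chr11:16752203-16918158) was at 816, 620 and 653 in the female and 819, 820 and 843 in the male cultures. Fgfr3 was at 40.3 ± 7.42 per kilobase and Fgfr1 at 17.2 ± 1.79. Pdgfra, a receptor of oligodendrocyte precursors, was at 189 and 162 in female cultures 2 and 3, lowest in female culture 1 at 42.1, with the males between 66.8 and 74.0. Epha2 went the other way, at 9.69 and 11.8 against 34.5 to 40.4. Ryk, a Wnt co-receptor, was among the most even, with a CV of 3.23% around a mean of 104, and the insulin receptor Insr was at 90.4 to 98.2. Fgfr4 and Ret had no row.
Of the developmental receptors, Bmpr1a for BMPs was at 39.5 ± 5.76 per kilobase, Fzd9 for Wnts at 31.5 ± 8.67 and Notch1 at 27.6 ± 4.49. Notch1 was at 407, 501 and 421 in the female and 347, 325 and 359 in the male cultures. Its paralogue Notch2 ran from 61 to 102 in 5 cultures and reached 157 in female culture 2. Smo, the Hedgehog transducer, was even at 86.6 to 106. Among receptors of transmitters, Grm5, a metabotropic glutamate receptor, was at 156 to 332 and Grm3 at 60.0 to 83.4, while Gria4, a subunit of AMPA receptors, ran from 4.49 in male culture 3 to 28.8 in female culture 1. Its CV was 57.7% over all 6 libraries and 77.2% without female cultures 2 and 3.

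The most abundant ligand was Ptn, pleiotrophin, a heparin-binding growth factor of radial glia. It stood at 385 ± 40.4 per kilobase, with values of 1211, 1470 and 1519 in the female and 1265, 1281 and 1186 in the male cultures. Its paralogue Mdk was at 0.79 to 1.27, and its receptor Ptprz1 at 1066 to 1426, the latter with a CV of 10.5%. Vegfa was at 92.9 ± 15.6 per kilobase. Egf and Fgf2, the mitogens on which neurosphere cultures are usually grown, were at 3.59 to 5.5 and 2.91 to 4.44, and Igf2, Fgf8, Ntf3 and Cxcl12 were among the 15 of 44 growth factors and cytokines with no row.
Hbegf and Tgfa, which both bind Egfr, went opposite ways. Hbegf was at 58.2 and 62.6 in female cultures 2 and 3 and at 122 to 163 in the others, and Tgfa at 40.5 and 32.3 against 10.5 to 15.7. Of Notch ligands, Dll1 was at 42.9 ± 11 per kilobase and Dll3 at 20.9 ± 11.4. Dll3 was at 113 and 85.6 in female cultures 2 and 3 against 32.7 to 48.0. Wnt7b, a Wnt of the cortex, was at 213 and 172 there against 74.0 to 97.1, while Wnt7a was even at 43.2 to 58.8. Bmp7 was lower there, at 32.0 and 51.5 against 85.8 or more. Dhh, a Hedgehog ligand, was at 2.77 and 5.83 there, 12.3 in female culture 1, with the males between 21.2 and 25.4. Shh and Ihh had no row.
Matrix genes were led by Ncan, a proteoglycan, at 172 ± 27.5 per kilobase, Sparcl1 at 118 ± 57.8 and Tnc, a matrix protein of the stem cell niche, at 113 ± 40.6. Without female cultures 2 and 3 Tnc was above Sparcl1, at 137 against 82.4 per kilobase. Tnc was at 1253, 508 and 517 in the female and 1173, 946 and 888 in the male cultures. Tnr, a tenascin of the oligodendrocyte lineage, was at 259 and 148 in female cultures 2 and 3 against 16.4 to 30.6, and Draxin, a guidance cue, at 133 and 126 against 26.1 to 40.9. Spp1, osteopontin, was at 0.635 and 3.31 there and at 13.8 to 17.5 in the others.

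Metabolic genes stood high as groups. At or above the 90th percentile of nuclear coding genes per kilobase were 16 of 24 genes of pyruvate dehydrogenase and the citrate cycle (66.7%), 16 of 25 of lipid metabolism (64.0%), 13 of 31 of serine, glutamine and amino acid transport (41.9%) and 7 of 21 of glycolysis (33.3%), against 10.0% of all such genes. Of 30 genes of the pentose phosphate and nucleotide pathways 4 reached it (13.3%). Of 33 developmental receptors 1 reached it (3.03%), and of 34 developmental ligands 1 (2.94%). These counts are a description of lists chosen with earlier results known.
Aldoa, an aldolase, led glycolysis at 277 ± 34.0 per kilobase, followed by Ldha at 179 ± 29.3 and Pkm at 174 ± 22.5. Aldoc, the aldolase of astrocytes, was at 230, 794 and 601 in the female and 312, 335 and 339 in the male cultures. Pkm was lowest in female culture 2, at 645 against 865 to 940 in the other 5. In the citrate cycle, Mdh1 was at 146 ± 25.6 and Idh1 at 142 ± 22.3 per kilobase, and the 24 genes had a median CV of 11.8%. The succinate dehydrogenase subunits Sdha, Sdhb and Sdhd had CVs of 7.85%, 8.31% and 11.7%.
Fatty acid genes held some of the highest values. Acly, which makes cytosolic acetyl-CoA, was at 96.9 ± 20.6 per kilobase and Fads2, a fatty acid desaturase, at 95.0 ± 18.2. Acly was at 579, 366 and 379 in the female and 607, 571 and 568 in the male cultures, lowest in female cultures 2 and 3. Without those cultures its CV fell from 21.3% to 3.02%. Fads2 was highest there, at 423 and 339 against 260 to 293.
Slc1a3, the glutamate transporter of radial glia, was at 1030 to 1271 with a CV of 7.49%, and Psat1 of serine synthesis at 410 to 510 with 8.32%. Glud1, glutamate dehydrogenase, was at 1318 and 951 in female cultures 2 and 3 against 375 to 479. Of the 30 genes of the pentose phosphate and nucleotide pathways 13 ranged over more than 2-fold, against 14.7% of all genes with a mean of at least 5. Their median CV was 22.4%, and 5.39% without female cultures 2 and 3. Rrm2, a subunit of ribonucleotide reductase, was at 62.8 and 118 in those cultures against 217 to 245, and Tyms at 14.3 and 20.6 against 37.0 to 43.7. Paics of purine synthesis was at 246 and 258 against 252 to 285, with a CV of 6.26%. Shmt1 of the serine list was at 14.1 and 28.8 against 59.9 to 65.7. Tkt of the pentose phosphate pathway varied less, at 522 and 639 against 716 to 736.

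The spread between cultures differed by gene group. Over the 11677 genes with a mean of at least 5 the median CV was 13.2% (quartiles 8.35% and 21.2%), where counting alone would give a median of 3.81%, and 8933 genes (76.5%) had a CV over 2 times their counting error. Without female cultures 2 and 3 the median fell to 7.03%. Over all 6 libraries 1714 genes (14.7%) ranged over more than 2-fold and 272 over more than 4-fold, while among the other 4 libraries 104 (0.891%) ranged over more than 2-fold. Female culture 2 held the highest value in 744 of the 1714 and the lowest in 729.
Of 26 proliferation genes 18 ranged over more than 2-fold, and their median CV was 27.3% over all 6 libraries and 5.08% without female cultures 2 and 3. Mki67, a marker of cycling cells, was at 537, 273 and 370 in the female and 652, 630 and 570 in the male cultures. Pcna, the clamp of DNA polymerase, was at 157, 69.4 and 92.4 in the female and 167, 165 and 166 in the male cultures. Cdk4 did not follow them and was at 521 to 589.
Markers of astrocytes and oligodendrocytes spread most. The median CV of 11 astrocyte markers was 54.9%, and that of 7 markers of myelinating oligodendrocytes 98.2%, falling to 16.8% and 21.9% without female cultures 2 and 3. Gpr17 of oligodendrocyte precursors was at 322 and 201 in those cultures against 10.2 to 32.4, and Aqp4, a water channel of astrocytes, at 198 and 106 against 7.55 to 25.9. Cnp, an enzyme of the myelin membrane, was at 461 and 331 against 86.9 to 125. Angptl4, a lipase inhibitor, was at 89.0 and 34.1 against 1.07 to 2.93. Summed over their lists, the 12 astrocyte markers came to 927, 2911 and 2110 in the female and 1116, 1203 and 1260 in the male cultures, and the 8 oligodendrocyte markers to 170, 1067 and 655 in the female and 229, 225 and 193 in the male cultures. The 16 radial glial markers summed to 10302 to 12064, but single members varied more than the sum. Their median CV was 20.6%, and 7.02% without female cultures 2 and 3. Of the 16, 5 ranged over more than 2-fold, against 14.7% of all genes with a mean of at least 5. The part of these cell types in the values of the other groups was not tested.
The most even genes of 4756 coding genes with a mean of at least 50 were Mrps18a, a mitochondrial ribosomal protein, at 50.8 to 51.9 with a CV of 0.889%, and Scaf11, a splicing factor, at 205 to 211 with 1.08%. Of the 15 genes with the smallest CV, 13 lay below the spread that counting alone would give, so their order cannot be resolved at this depth. Eif3c, a subunit of an initiation factor, and Rps15 were the other 2, at 368 to 385 and 232 to 242. Btg2, a gene linked to neurogenic divisions, had a CV of 2.54% at 230 to 247.

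**Figure D4:**
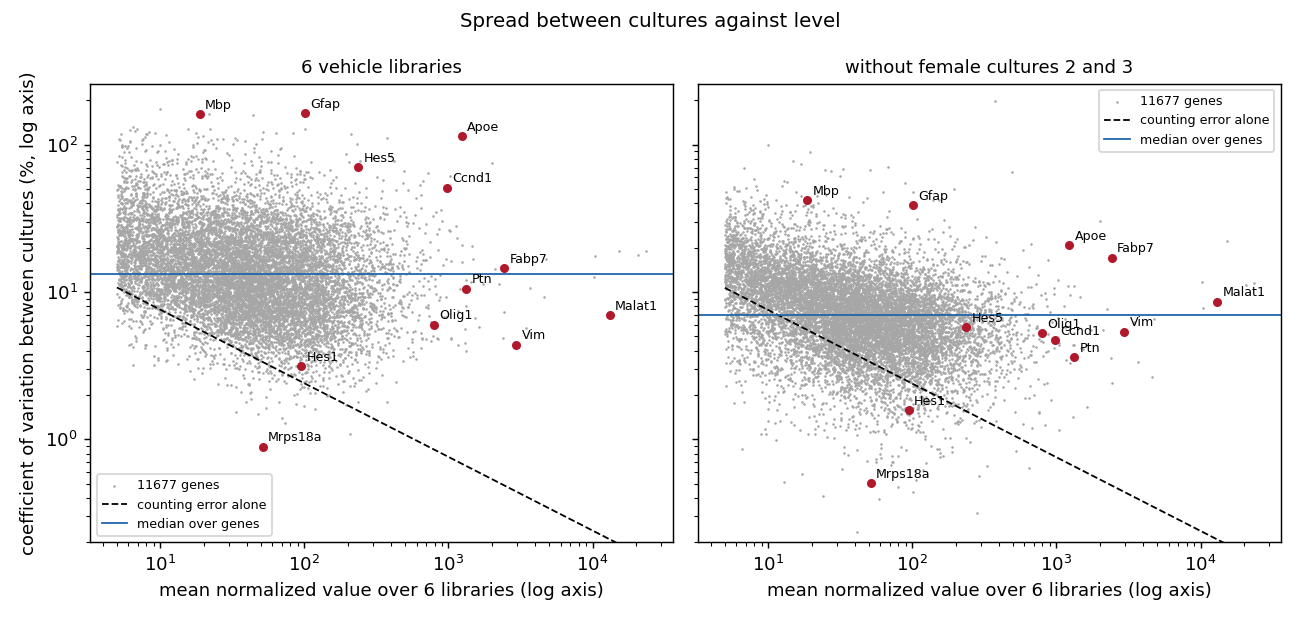
CV between cultures in percent against mean normalized value, both on log axes, for the 11677 genes with a mean of at least 5, over all 6 vehicle libraries on the left and without female cultures 2 and 3 on the right. The dashed line is counting error alone and the horizontal line the median over genes, which is 13.2% on the left and 7.03% on the right.

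**Figure D5:**
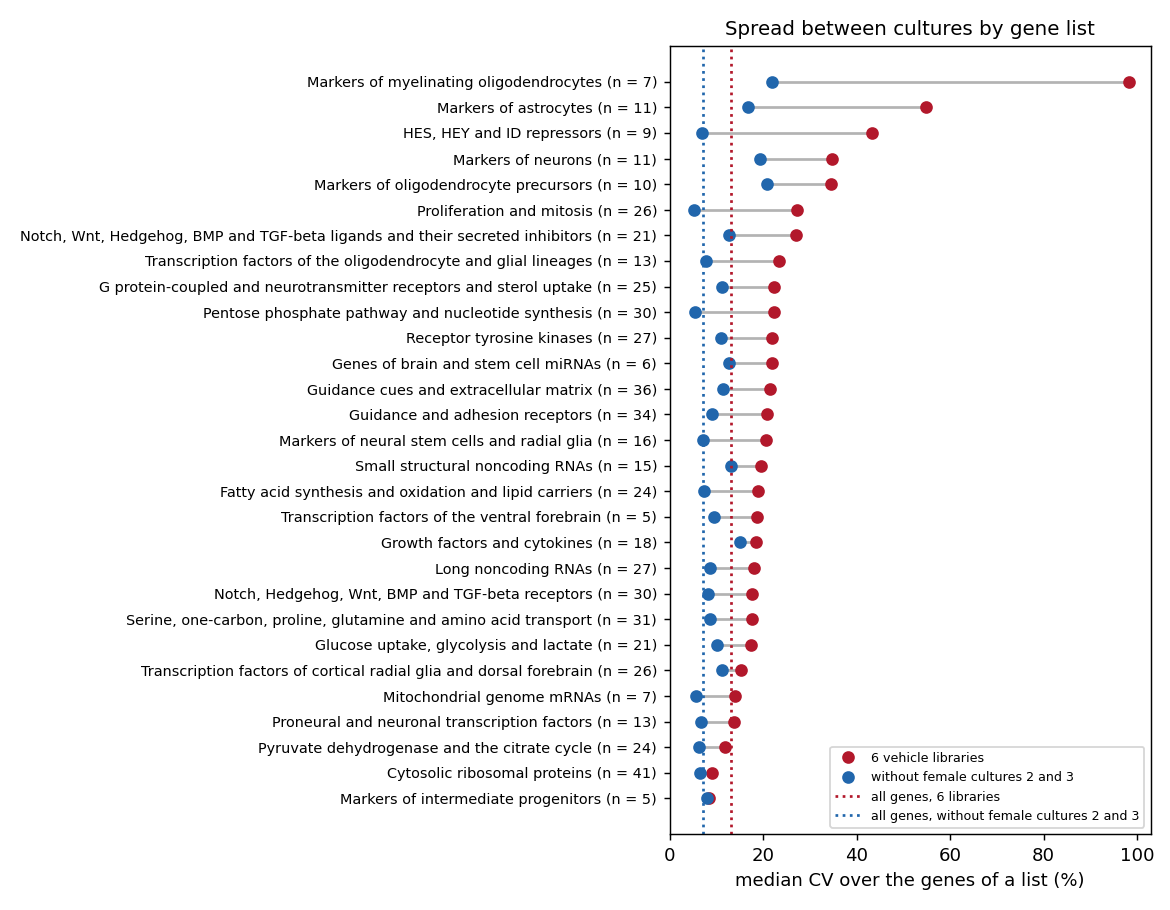
Median CV in percent of the genes with a mean of at least 5 in the lists that hold at least 5 of them, the sex genes left out, over all 6 vehicle libraries and without female cultures 2 and 3, with n the number of genes. Myelinating oligodendrocyte markers lie farthest right at 98.2%, and dotted lines give 13.2% and 7.03% for all genes.

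The sexes were compared because sex is the only label that divides the vehicle cultures. Of 15081 genes tested by limma 5 passed an adjusted p under 0.05 and a fold above 1.5, which is 0.0332% of those tested, and all 5 lie on the sex chromosomes. Xist, the RNA that coats the inactive X, was higher in all 3 female cultures, at 830, 778 and 650, than in the 3 male cultures, at 0.592, 0.425 and 0.470. The log2 difference was 9.56 ± 0.13 (SE, adjusted p = 4.17e-07, limma with Benjamini-Hochberg). The 4 genes higher in males were Ddx3y, Eif2s3y, Kdm5d and Uty, all Y-linked, which the male cultures held at 94.6 to 112, 58.6 to 77.0, 52.4 to 57.7 and 46.4 to 53.2. In the female cultures these were at most 0.112, at or below the level of 3 reads, so their fitted differences are no measure of size. Adjusted p lay between 2.42e-06 and 3.88e-06 by the same limma test.
Called genes were 1 higher in females (0.00663%) and 4 higher in males (0.0265%). X-linked genes known to escape inactivation were not called. Kdm6a, a histone demethylase, was at 108, 153 and 133 in the female and 69.1, 73.2 and 71.5 in the male cultures, and Kdm5c at 232, 233 and 217 against 165, 152 and 164. Neither pair of groups overlapped, but neither did those of 19.4% of all genes tested, and the adjusted p of both by limma was 0.354. At an unadjusted p under 0.05, 2022 genes passed. Without female culture 1, when cultures 2 and 3 were the only females, 3131 genes were called.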

How the data were processed

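RNA was measured by stranded total RNA sequencing of neurospheres from individual embryos. The authors merged lanes of a library and aligned reads to GRCm38 with TopHat2 2.1.1. They assembled transcripts with Cufflinks and merged these with the reference annotation by Cuffmerge. Genes were counted on that merged annotation with HTSeq at its default settings. The deposited signal per gene was read counts divided by a library's effective size in edgeR. All values were whole reads within a tolerance of 0.01 once a library's step was found, so reads could be recovered. The deposited fold changes, p-values and single-sex tables were not used, and 21 symbols that a spreadsheet had turned into dates were restored.

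Biotypes were those of the deposited table, and lengths and positions came from GENCODE vM21 for 16066 of 16106 genes. These lengths may differ from those of the merged annotation used for counting. Spread was computed over genes with a mean of at least 5. Female and male vehicle cultures were compared on log2(value + 0.5) with limma 3.58.1 in R 4.3.3, without a block for replicate number. Genes were tested where 3 or more of the 6 vehicle libraries had a value over 1. A gene was called when its fold exceeded 1.5 and its adjusted p lay below 0.05. Fold changes on this scale understate those of low genes. On simulated data of 15081 genes this fit recovered 97% of genes changed 2-fold and 100% of those changed 4-fold, with 8 false calls. The simulation took its spread from the 4 libraries other than female cultures 2 and 3, so these shares overstate what the fit to all 6 libraries can detect. edgeR 4.0.16 and DESeq2 1.42.0 on recovered reads were alternatives, as were other pseudocounts, filters, scalings and left-out libraries. Levels per kilobase without female cultures 2 and 3 were added after seeing the data. The floor of 3 reads covers counting error only, while ± values are SDs or SEs between cultures.

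Named genes were the 20 leading nuclear coding genes per kilobase, the 12 leading noncoding and 12 leading long noncoding genes and the mitochondrial mRNAs. Further named genes were the 8 highest and 3 most variable members of each list, the 15 most and 15 least even genes, cell type markers and the genes called between sexes. Other list members, pairs of paralogues and miRNA hosts were named after their values were seen. Members and lists were chosen with earlier results of these data known. Cultures came from separate embryos. Some members that the rule names are not reported here.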

Additional observations from a re-analysis of the deposited data

Results flagged for a closer look

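The values examined were 244, those of named genes together with shares of RNA classes. Of these, 12 (4.92%) had a highest or lowest culture set apart from the other 5 by more than Dixon's 95% limit for 6 samples. Chance gives about 1 in 20. Female culture 2 held 7 of the 12. It was lowest for the histone gene Hist1h4h at 168 (227 to 255 in the other 5) and for Pkm at 645 (865 to 940). It was highest for mt-Nd4 at 291 (182 to 213), Sox9 at 207 (135 to 144), Tcf7l1, a repressor of Wnt targets, at 10.5 (3.61 to 6.09), Id4 at 57.6 (8.67 to 23.7) and the myelin gene Mbp at 76.3 (0.895 to 29.0).

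Female culture 1 was lowest for Gsx2 at 0.0559 (1.80 to 2.71) and highest for Gbx2 at 2.69 (0.601 to 1.20), both at few reads. Wnt7a was highest in male culture 1 at 58.8 (43.2 to 48.1). Ppp2cb, a phosphatase subunit, was highest in female culture 3 at 123 (117 to 119), and Kctd3 was lowest in male culture 3 at 64.0 (66.0 to 67.2). Ppp2cb and Kctd3 were among the 15 genes with the smallest CV, and their spread lay below that of counting alone.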

How the results depend on the processing

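The 5 genes called between the sexes stayed called in 85 of 85 alternative values. The count of 5 (1 higher in females, 4 in males) was 52 (42 and 10) with DESeq2, 17 (9 and 8) with all 12 libraries and treatment as a covariate, and 34 (4 and 30) without female cultures 2 and 3 together. Leaving out 1 library gave 5 to 3131 calls, 1 to 1615 of them higher in females and 4 to 1516 higher in males, and the highest counts were those without female culture 1. With replicate number as a block, 5 genes were called, the same 5. Same-numbered female and male cultures did not deviate together (r of -0.0912 to 0.0870 over genes), so the numbers were not taken as pairs. The median CV of 13.2% was 7.03% without female cultures 2 and 3, 11% at a mean of at least 50, and 11.1% to 13.8% with 1 library left out. The median SD of log2 values, 0.19, was 0.10 without those 2 cultures and 0.16 to 0.19 with 1 left out. Of the 20 leading nuclear coding genes 11 were shared when length was ignored. All 33 gene lists had a lower median CV without female cultures 2 and 3, and the median level was higher in 15 and lower in 18, with 8 moving by more than their spread. The cause of these shifts was not tested. Depth limits genes near 3 reads.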

Other observations

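Of 10 ependymal and choroid plexus markers 2 had a row in the table analysed here. Foxj1, a factor of ciliated cells, was at 25.8 ± 4.99 (SD, n = 6). Ttr, transthyretin of the choroid plexus, was at 4.50 and 5.89 in female cultures 2 and 3, and at 0.0559, 0.0592, 0 and 0 in female culture 1 and male cultures 1 to 3, which is at most 1 read.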
